A study of Mus musculus with 16 samples.

Results

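Mmp14, Mmp15 and Mmp9 are the matrix metalloproteases described here, 3 of the 7946 genes listed for sorted lung alveolar macrophages (AMs), and their rows were taken by name. These genes were selected on their levels and fitted differences in these same libraries, so all values for them are a description without a test. The libraries came from female C57BL/6 mice that inhaled aerosols for 10 weeks, in sessions of 30 min held 3 times per week. AMs (CD45+CD11c+Siglec-F+) were fixed, stained for the senescence protein p16 inside the cell and sorted by high or low p16 signal, 5000 cells per sample. There were 4 groups of 4 libraries: LPS p16-positive, LPS p16-negative, PBS p16-positive and PBS p16-negative. LPS mice breathed Escherichia coli lipopolysaccharide at 0.5 mg/ml in phosphate-buffered saline (PBS), and PBS mice breathed PBS alone. The methods mention pooled samples in describing the lung epithelium libraries, and do not say whether these AM samples were pooled. The labels call the replicates biological, but neither the methods nor the labels tie a library to an animal. The methods name young and old mice for the study without saying which these libraries came from.

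Matrix metalloproteases are zinc enzymes that are made as inactive proenzymes and, once activated, cut collagens, elastin, laminins and other extracellular proteins. Mmp14 (MT1-MMP) sits in the cell membrane, degrades fibrillar collagen and activates pro-Mmp2, and Mmp15 (MT2-MMP) is a membrane-anchored relative that can also activate pro-Mmp2. Mmp9 (gelatinase B) is secreted, cuts denatured collagen, type IV collagen and elastin, and is a well known product of neutrophils and macrophages.

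In the RefSeq annotation of mouse build GRCm38.p6, Mmp14 lies at chr14:54431598-54442456, Mmp15 at chr8:95352296-95374293 and Mmp9 at chr2:164940326-164955850. All 3 genes are on the plus strand, and in the GENCODE annotation of the same build no other gene overlaps them. Counting used unique molecular identifiers (UMIs) at the 3′ ends of transcripts, so the values say nothing of upstream exons or of protein. The RefSeq promoter table held 2 of the 3 genes. Their promoters, 250 bases before to 50 bases after the transcription start, are shown because Mmp14 and Mmp15 carry the contrasting patterns below, with the GC box (GGGCGG or its complement, a binding motif of Sp-family factors) in capitals.
Mmp14 promoter, chr14:54431348-54431647: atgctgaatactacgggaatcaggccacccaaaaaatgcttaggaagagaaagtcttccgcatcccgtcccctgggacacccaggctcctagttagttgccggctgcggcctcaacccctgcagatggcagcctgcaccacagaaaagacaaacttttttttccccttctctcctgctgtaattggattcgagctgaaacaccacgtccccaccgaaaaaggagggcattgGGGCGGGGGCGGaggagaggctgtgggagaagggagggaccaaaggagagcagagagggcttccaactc
Mmp15 promoter, chr8:95352046-95352345: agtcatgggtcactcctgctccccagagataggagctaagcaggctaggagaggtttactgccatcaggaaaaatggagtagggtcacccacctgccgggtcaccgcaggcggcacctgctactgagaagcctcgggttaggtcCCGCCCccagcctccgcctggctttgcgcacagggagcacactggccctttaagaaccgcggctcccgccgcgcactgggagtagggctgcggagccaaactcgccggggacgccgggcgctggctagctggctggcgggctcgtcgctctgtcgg
The Mmp14 promoter was 56% G and C, and its 2 GC boxes stood side by side at -19 to -14 and -13 to -8 from the start, on the plus strand. The Mmp15 promoter was 66% G and C, and its 1 GC box was on the minus strand at -106 to -101. A GC box was found, on either strand, in 35.7% of 32851 promoters of this length, so its presence does not set the genes apart. The CCAAT box (CCAAT) matched the Mmp14 promoter 2 times, at -69 to -65 and at -23 to -19, where it shared 1 base with the first GC box, and did not match that of Mmp15 (37.4% of all promoters). The letters of the AP-1 site (TGANTCA, 7.81% of promoters), the TATA box (TATAAA, 13.6%) and an ETS core (GGAAGT, 23.8%) were in neither window.

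The libraries held 13861 to 1176358 UMIs, and a level is given in CPM, the UMIs of a gene per 1000000 UMIs of its library. In the smallest libraries, PBS p16-positive replicate 1 (13861 UMIs) and PBS p16-negative replicate 1 (15755 UMIs), a count of 0 allows a level of up to 216 and 190.4 CPM (3 UMIs). These 2 libraries also stood apart on the first principal component, which held 34.1% of the variance. All 17 markers on an AM list were detected in each group and took 0.707 to 8.19% of the UMIs of a library, and markers of airway epithelial and endothelial cells were detected in every group as well. Secretory airway markers took 0.0893 to 27.4% of the UMIs of a library. In sorted bulk samples, fewer cells of a type and less RNA per cell cannot be told apart.

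**Figure D1:**
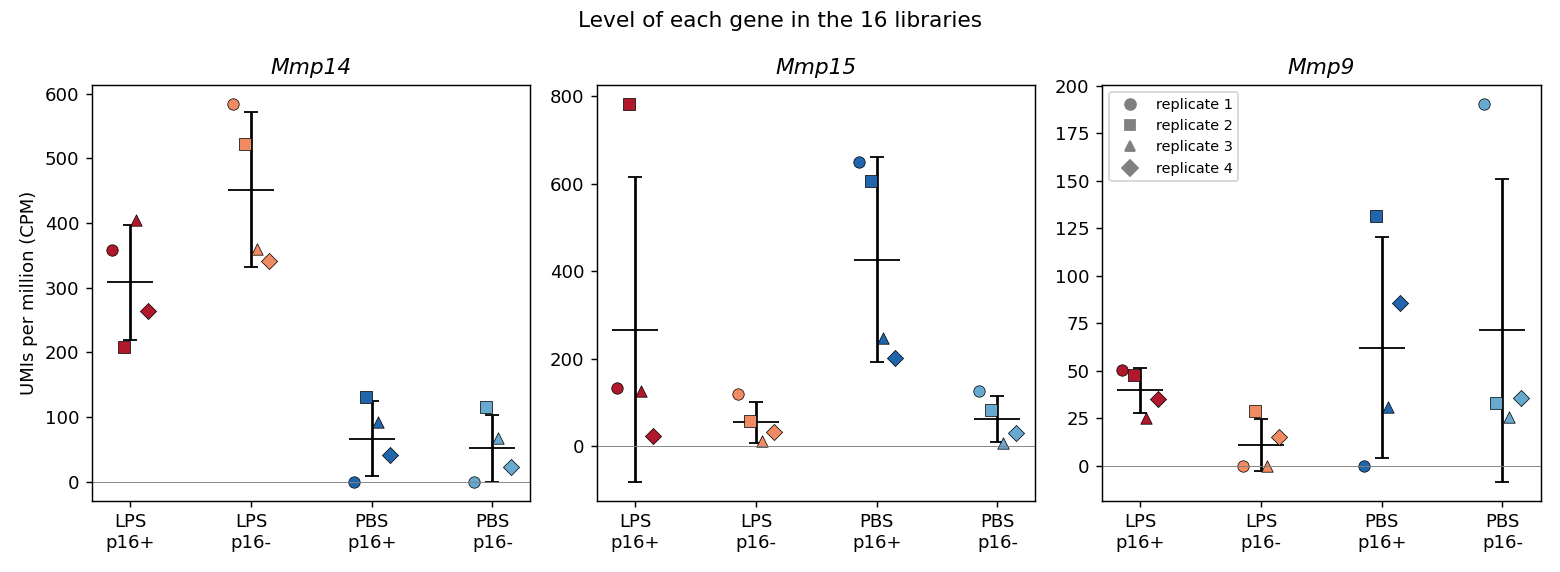
Levels of Mmp14, Mmp15 and Mmp9 in CPM (vertical axis, a separate linear scale for each gene) in the 4 groups (p16+, p16-positive; p16-, p16-negative). Each symbol is 1 library, its shape gives the replicate number, and horizontal bars with whiskers are the mean and SD of 4 libraries. The 8 LPS libraries lay at 208 to 584 CPM of Mmp14, above all 8 PBS libraries, whereas Mmp15 was highest in 1 LPS p16-positive library and the 4 PBS p16-positive libraries.

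Mmp14, the collagenase of the cell membrane, was high in AMs of LPS mice in both p16 fractions. It was at 358, 208, 404 and 264 CPM in LPS p16-positive libraries (replicates 1 to 4; 64, 61, 48 and 311 UMIs) and at 584, 522, 360 and 341 CPM in LPS p16-negative libraries (59, 73, 60 and 137 UMIs). In PBS p16-positive libraries it was at 0, 131, 93.0 and 41.5 CPM (0, 13, 18 and 18 UMIs), and in PBS p16-negative libraries at 0, 115, 68.2 and 22.3 CPM (0, 7, 8 and 5 UMIs). Every LPS library was therefore above every PBS library, in 64 of 64 pairs, whereas the p16 fractions overlapped within each treatment. The zeros were in the 2 smallest libraries. The limit that a count of 0 allows, 216 CPM in PBS p16-positive replicate 1, is above the lowest LPS library (208 CPM). The limit of 190.4 CPM in PBS p16-negative replicate 1 is below that LPS library. The 95% exact intervals of these zeros are wider, and reach 266 CPM in the p16-positive and 234 CPM in the p16-negative library. By these intervals, neither zero is resolved from the lowest LPS library. The other 6 PBS libraries spanned 22.3 to 131 CPM.

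Mmp14 averaged 309 ± 89.0 CPM in LPS p16-positive, 452 ± 120 in LPS p16-negative, 66.5 ± 57.6 in PBS p16-positive and 51.4 ± 51.1 in PBS p16-negative libraries (SD, n = 4 each), so LPS p16-negative libraries stood highest and PBS p16-negative libraries lowest. The step between the LPS groups was smaller than their ranges, since p16-positive libraries were higher in 3 of 16 pairs, and the PBS groups overlapped with p16-positive higher in 9 of 16 pairs. Only the step between LPS and PBS separated the measured levels of all libraries. The fitted log2 fold change was 2.67 ± 0.40 for LPS over PBS (SE, 16 libraries, edgeR), and -0.22 ± 0.39 for p16-positive over p16-negative. Within the fractions, LPS over PBS was 2.21 ± 0.55 in p16-positive AMs and 3.24 ± 0.60 in p16-negative AMs, on the log2 scale. Leaving out any 1 library kept the overall LPS difference between 2.45 and 2.91.

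Among the 6516 genes tested, 0.123% had all 8 LPS libraries above all 8 PBS libraries, and Mmp14 is 1 of them. Between LPS p16-positive and PBS p16-positive libraries alone the share was 1.14%, and between LPS p16-negative and PBS p16-negative libraries it was 1.26%. Mmp14 is also the 1 of the 3 genes among those called higher in LPS (edgeR's quasi-likelihood test, Benjamini-Hochberg adjusted p under 0.05), against 0.43% of tested genes called higher and 0.491% called lower. Because the gene was chosen with this contrast in view, nothing is read from these counts.

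Markers of macrophages and of other cells varied with Mmp14. AM markers took 1.80 to 6.12% of UMIs in LPS p16-positive libraries, 4.01 to 8.19% in LPS p16-negative, 0.707 to 3.71% in PBS p16-positive and 2.02 to 4.27% in PBS p16-negative libraries, and none of the 17 was called in the LPS comparison (7 with an unadjusted p under 0.05). Across the 14 libraries with at least 50000 UMIs, Spearman's rank correlation between Mmp14 and the AM marker share was 0.61. Markers of interstitial macrophages and monocytes (8 of 14 in the table) took 0.0711 to 0.348% in LPS p16-positive, 0.0523 to 0.251% in LPS p16-negative, 0.0216 to 0.0874% in PBS p16-positive and 0.0190 to 0.0792% in PBS p16-negative libraries. Of the 7 tested, 2 rose with LPS and 0 fell, the complement genes C1qa (log2 fold change 1.90, edgeR, adjusted p = 0.0103) and C1qc (1.98, adjusted p = 0.0439), and the rank correlation of this share with Mmp14 was 0.37. In LPS 6 of 13 endothelial, 2 of 4 fibroblast and 1 of 2 mast cell and basophil markers fell, and the endothelial share had a rank correlation of -0.55 with Mmp14. The rank correlation was -0.70 for B cell markers (3 of 8 in the table) and -0.60 for general epithelial markers (14 of 16). It was weaker for the other epithelial lists, at -0.32 for alveolar type II, -0.17 for ciliated airway, -0.12 for secretory airway and -0.05 for alveolar type I markers. The part of cell makeup in the Mmp14 difference was not tested.

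Mmp15, the second membrane-type enzyme, was mostly higher in p16-positive libraries, in both treatments. It was at 134, 783, 126 and 23.8 CPM in LPS p16-positive libraries (24, 230, 15 and 28 UMIs) and at 119, 57.2, 12.01 and 32.3 CPM in LPS p16-negative libraries (12, 8, 2 and 13 UMIs). It was at 649, 606, 248 and 203 CPM in PBS p16-positive libraries (9, 60, 48 and 88 UMIs) and at 127, 82.2, 8.52 and 31.2 CPM in PBS p16-negative libraries (2, 5, 1 and 7 UMIs). The PBS fractions did not overlap, whereas the LPS fractions did, with p16-positive replicate 4 below 3 of the 4 p16-negative libraries. Over both treatments, the p16-positive library was the higher in 57 of 64 pairs.

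A single library weighed heavily on Mmp15. LPS p16-positive replicate 2 held 41.7% of all Mmp15 UMIs, and its 783 CPM (95% exact binomial interval 685 to 891, counting error only) was several times the 23.8 to 134 CPM of the other 3 libraries of its group. Mmp15 averaged 267 ± 348 CPM in LPS p16-positive, 55.1 ± 46.3 in LPS p16-negative, 427 ± 234 in PBS p16-positive and 62.2 ± 53.0 in PBS p16-negative libraries (SD, n = 4 each). The order of the means, high to low, was thus PBS p16-positive, LPS p16-positive, PBS p16-negative and LPS p16-negative. LPS p16-positive and PBS p16-positive libraries overlapped, LPS p16-positive and PBS p16-negative libraries overlapped, and so did both p16-negative groups, so no neighbours in this order differ beyond their spread.

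The log2 fold change of Mmp15 was 2.71 ± 0.55 for p16-positive over p16-negative and 0.06 ± 0.52 for LPS over PBS (SE, 16 libraries, edgeR). The p16 difference was 2.44 ± 0.74 within LPS and 3.06 ± 0.85 within PBS. Without LPS p16-positive replicate 2, the p16 difference was 1.93 overall and 0.81 within LPS, and the LPS difference became -0.89 overall and -1.81 within p16-positive AMs. The direction of the LPS difference in Mmp15 also turned with the scaling, at -0.16 with relative log expression factors and -0.21 in DESeq2, so no direction is given for it.

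Of the 6516 tested genes, 2.52% had all 4 PBS p16-positive libraries above all 4 PBS p16-negative libraries, as Mmp15 did. In the p16 comparison 1.41% of tested genes were called higher in p16-positive AMs and 0% lower (edgeR, 85 genes lower at an unadjusted p under 0.05). DESeq2 called 1 lower, and edgeR with a replicate block called 9 lower (block by number) or 46 lower (by treatment and number). Of the 3 genes, 1, Mmp15, is among those called higher, and 2 of the 16 fits that leave out a library do not call it, those lacking LPS p16-positive replicate 2 or LPS p16-negative replicate 4. With this p16-negative library left out, no gene at all was called. Mmp15 was chosen with this contrast in view, so the counts are given as a description.

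Markers of other lung cells moved with Mmp15. Ciliated airway cell markers (12 of 16 in the table) took 0.0638 to 0.750% of UMIs in LPS p16-positive libraries, 0.0162 to 0.0891% in LPS p16-negative, 0.0873 to 0.267% in PBS p16-positive and 0.0375 to 0.152% in PBS p16-negative libraries. Of the 11 ciliated markers tested, 4 rose in p16-positive AMs and 0 fell, among them Foxj1, the master regulator of motile cilia (log2 fold change 3.14, adjusted p = 0.0122, edgeR). Dnah9 and Dnah11 were at 0 in all LPS p16-negative libraries. Across the 14 larger libraries, Spearman's rank correlation between Mmp15 and the ciliated share was 0.85, and without LPS p16-positive replicate 2 it was 0.82.

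Other lists ran the same way with Mmp15. Spearman's rank correlation was 0.85 with alveolar type I markers (9 of 10 in the table), 0.78 with secretory airway markers (14 of 15) and 0.59 with general epithelial markers (14 of 16), against -0.61 with AM markers. Without LPS p16-positive replicate 2 the general epithelial value was 0.49. Over the 14 libraries it was also 0.78 with fibroblast (4 of 11) and 0.77 with alveolar type II markers (10 of 10). Smooth muscle and pericyte markers (5 of 9) were at 0.69 and endothelial markers (13 of 16) at 0.61. The highest value of any list, 0.93, was with mast cell and basophil markers, of which the table held 2 of 6, Hdc and Gata2, and Gata2 is also active in endothelium. In the p16 comparison 6 of 13 general epithelial markers and 4 of 14 secretory markers rose, and 0 fell in either list (edgeR). Cldn4, a tight junction gene, was at 0 in all PBS p16-negative libraries. Other general epithelial markers were not called, among them Epcam (log2 fold change 0.28 for p16), Spint1 (0.02) and Krt19 (-0.49). LPS p16-positive replicate 2, the library with most Mmp15, had 9.61% of its UMIs in secretory markers and 1.80% in AM markers. The other 3 libraries of its group had 0.275 to 0.655% in secretory markers and 4.35 to 6.12% in AM markers. Secretory markers took 0.0893 to 1.10% in LPS p16-negative, 0.472 to 27.4% in PBS p16-positive and 0.132 to 18.1% in PBS p16-negative libraries. In PBS p16-positive libraries the median share was 3.49% for secretory, 2.85% for alveolar type II and 1.76% for AM markers. The part of these markers in the Mmp15 difference was not tested.

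**Figure D2:**
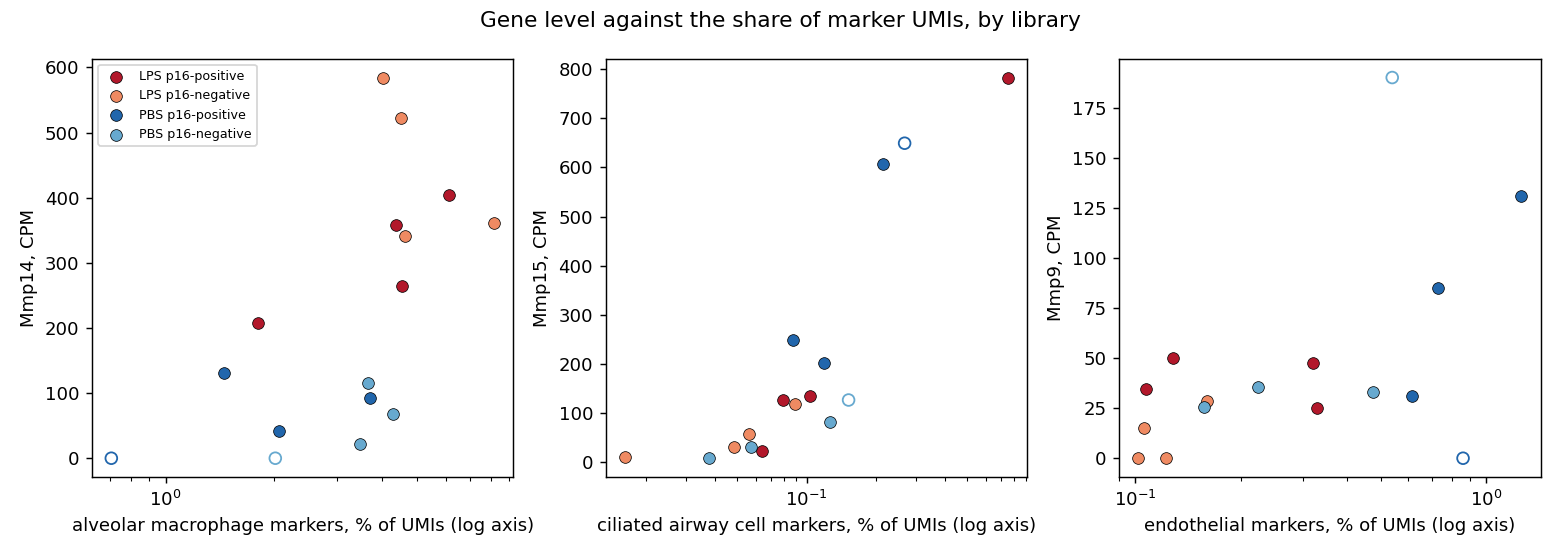
Level of each gene in CPM (vertical axis) against the share of a library's UMIs in a marker list, in percent on a log axis, for the 16 libraries coloured by group; open circles are the 2 libraries under 50000 UMIs. Mmp14 is set against AM markers, Mmp15 against ciliated airway cell markers and Mmp9 against endothelial markers. The LPS p16-positive library with 783 CPM of Mmp15 also had the highest ciliated share, 0.750%, and AM marker shares reached 8.19% in LPS libraries against 4.27% in PBS libraries.

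Mmp9, the secreted gelatinase, had the fewest counts, 149 UMIs in all, and no clear order of groups. It was at 50.4, 47.7, 25.3 and 34.9 CPM in LPS p16-positive libraries (9, 14, 3 and 41 UMIs) and at 0, 28.6, 0 and 14.9 CPM in LPS p16-negative libraries (0, 4, 0 and 6 UMIs). It was at 0, 131, 31.0 and 85.4 CPM in PBS p16-positive libraries (0, 13, 6 and 37 UMIs) and at 190.4, 32.9, 25.6 and 35.7 CPM in PBS p16-negative libraries (3, 2, 3 and 8 UMIs). Within LPS, the p16-positive library was the higher in 15 of 16 pairs, whereas within PBS it was the higher in 7 of 16. The highest PBS p16-negative value rests on 3 UMIs in a library of 15755, with an exact Poisson interval of 39.3 to 556 CPM.

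Mmp9 averaged 39.5 ± 11.7 CPM in LPS p16-positive, 10.9 ± 13.7 in LPS p16-negative, 61.9 ± 58.2 in PBS p16-positive and 71.1 ± 79.6 in PBS p16-negative libraries (SD, n = 4 each). From the highest mean, in PBS p16-negative, through PBS p16-positive and LPS p16-positive to LPS p16-negative libraries, all neighbours overlapped. The log2 fold change was 1.19 ± 0.52 for p16-positive over p16-negative and -1.004 ± 0.51 for LPS over PBS (SE, 16 libraries, edgeR), and it was not called in either comparison. Its p16 difference was 1.74 ± 0.76 within LPS and 0.66 ± 0.74 within PBS. Its LPS difference was -0.61 ± 0.65 in p16-positive AMs and -1.68 ± 0.84 in p16-negative AMs. Leaving out any 1 library kept the overall p16 difference between 1.00 and 1.41 and the LPS difference between -1.20 and -0.80.

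Mmp9 varied with markers of several other cell types. Across the 14 larger libraries, Spearman's rank correlation was 0.82 with B cell markers (3 of 8 in the table), 0.79 with dendritic cell markers (3 of 8), 0.70 with T and NK cell markers (4 of 11), 0.68 with ciliated airway markers (12 of 16), 0.63 with neutrophil markers (11 of 14), 0.62 with endothelial markers (13 of 16) and -0.72 with AM markers. Over all 16 libraries these values were nearer to 0, among them 0.60 with B cell, 0.36 with neutrophil, 0.44 with endothelial and -0.48 with AM markers. Neutrophil markers took 0.0682 to 0.174% of UMIs in LPS p16-positive libraries, 0.0487 to 0.139% in LPS p16-negative, 0.0636 to 0.196% in PBS p16-positive and 0.0443 to 0.102% in PBS p16-negative libraries, where Ngp and Camp were at 0. Endothelial markers took 0.108 to 0.330% of UMIs in LPS p16-positive, 0.102 to 0.160% in LPS p16-negative, 0.613 to 1.26% in PBS p16-positive and 0.157 to 0.540% in PBS p16-negative libraries, and 6 of 13 fell in LPS while 0 rose (edgeR). These points share library depth and composition, and the part of such cells in the Mmp9 values was not tested.

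**Figure D3:**
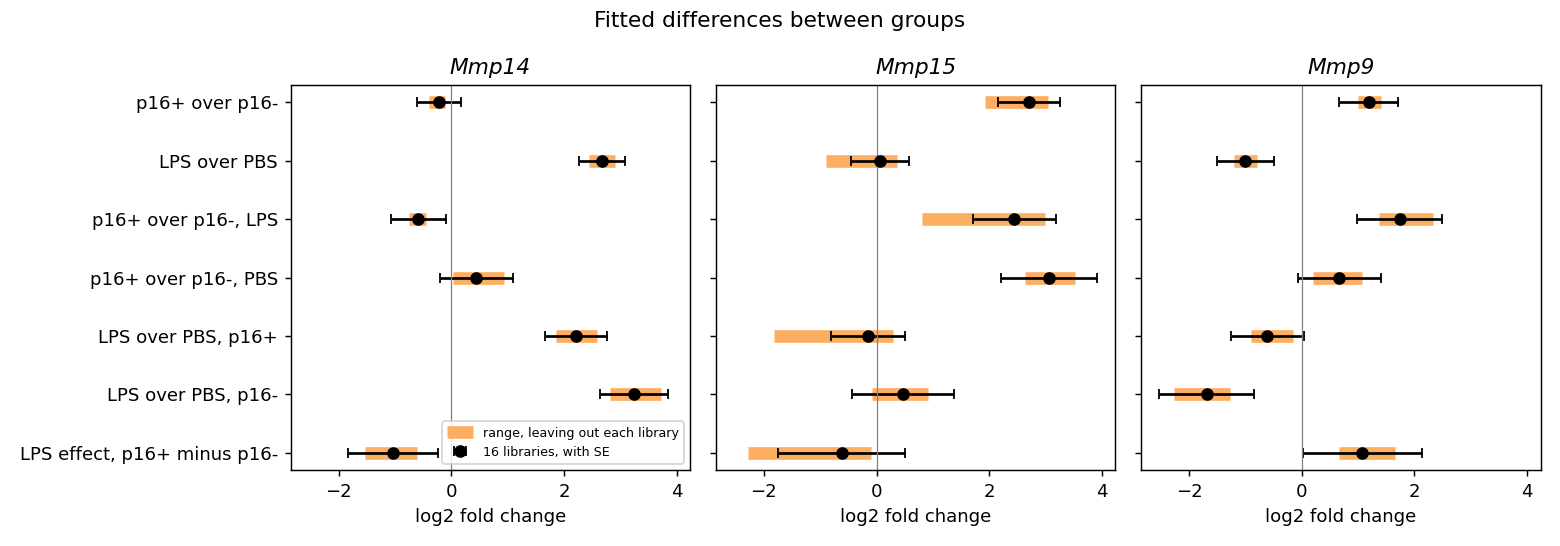
Fitted log2 fold changes (horizontal axis) of Mmp14, Mmp15 and Mmp9 for the 2 overall comparisons, the 4 comparisons within a treatment or fraction and the difference of the LPS effects. Points with whiskers are edgeR estimates from 16 libraries with their SE, and orange bars give the range when each library is left out in turn. Mmp14 lies at 2.67 for LPS over PBS and Mmp15 at 2.71 for p16-positive over p16-negative, and the bar of Mmp15 for LPS over PBS runs from -0.89 to 0.36, on both sides of 0.

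The difference of the LPS effects, p16-positive minus p16-negative, was fitted as well. For the 3 genes it is a description, like their other values. On the log2 scale it was -1.03 for Mmp14 (95% interval -2.67 to 0.60), -0.62 for Mmp15 (-2.90 to 1.66) and 1.07 for Mmp9 (-1.07 to 3.21). Each interval spans 0 and is wide enough to hold differences of several fold in at least 1 direction. None of the 3 was called, against 0% of tested genes (edgeR; 101 genes had an unadjusted p under 0.05, none of them one of these 3, and DESeq2 also called 0).

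The 3 genes did not share a profile. Over the 14 larger libraries Spearman's rank correlation was -0.05 between Mmp14 and Mmp15, -0.55 between Mmp14 and Mmp9 and 0.55 between Mmp15 and Mmp9. By Spearman's rank correlation among 3914 genes with at least 100 UMIs, the genes most like Mmp14 were Plxnd1, a semaphorin receptor (0.94), Crip1 (0.93), Irak2, a kinase-like mediator of interleukin-1 and Toll-like receptor signals (0.91), Stac2 (0.91) and Vsig8 (0.85). Those most like Mmp15 were Cbx6 (0.97), Spint2, a membrane inhibitor of serine proteases (0.96), the tight junction gene Cldn3 (0.95), Ddit4 (0.93) and Srcin1 (0.93). Those most like Mmp9 included Csf3r, the receptor of granulocyte colony-stimulating factor (0.86), Ppp1r13b (0.86), Itgb7 (0.85) and Gstm2 (0.85). The median gene had a rank correlation of -0.01 with Mmp14, -0.03 with Mmp15 and -0.00 with Mmp9. With all 16 libraries, 4 of the 5 genes remained nearest to Mmp14, 2 of 5 to Mmp15 and 0 of 5 to Mmp9. These points share treatment, fraction, depth and cell makeup.

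Other genes of metalloprotease biology came from 7 lists, with 68 genes tested besides the 3. In the p16 comparison 4 of the 68 rose in p16-positive AMs and 0 fell (12 had an unadjusted p under 0.05), with a median log2 fold change of 0.24 against 0.08 over all tested genes. Over all 6516 genes 92 rose, 0 fell and 666 had an unadjusted p under 0.05. In the LPS comparison 1 of the 68 rose and 0 fell (13 unadjusted), with a median of 0.13 against 0.14 over all genes, of which 28 rose, 32 fell and 604 had an unadjusted p under 0.05. In the test of the difference of the LPS effects 0 were called (1 unadjusted; DESeq2 also 0).

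**Figure D4:**
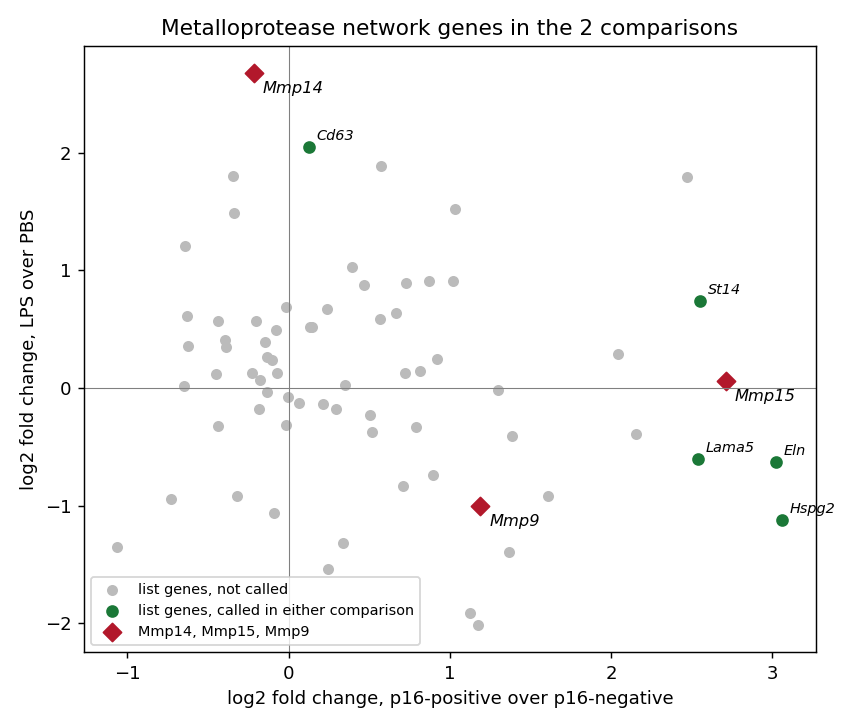
Fitted log2 fold changes of 68 genes of metalloprotease biology, p16-positive over p16-negative on the horizontal axis and LPS over PBS on the vertical axis. Red diamonds are Mmp14, Mmp15 and Mmp9, green points are list genes called in either comparison (adjusted p under 0.05) and grey points are list genes not called. Cd63, at 2.04 for LPS over PBS, lies near Mmp14, while St14, Eln, Lama5 and Hspg2 lie at 2.54 to 3.06 for p16 with Mmp15.

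Among other metalloproteases, 3 of 20 listed genes were tested, and the others are not analysed here. None was called in either comparison. Mmp19, a secreted member, had medians of 33.9 CPM in LPS p16-positive, 45.5 in LPS p16-negative, 62.7 in PBS p16-positive and 69.6 in PBS p16-negative libraries, with log2 fold changes of -0.14 ± 0.41 for p16 and 0.26 ± 0.42 for LPS. Mmp23 was sparse, with 55 UMIs in LPS p16-positive, 3 in LPS p16-negative, 6 in PBS p16-positive and 2 in PBS p16-negative libraries. These group counts are not scaled for depth. Medians were 27.5 CPM in LPS p16-positive (range 0 to 119), 3.57 in LPS p16-negative, 4.89 in PBS p16-positive and 2.23 in PBS p16-negative libraries. Its log2 fold change was 2.47 ± 0.90 for p16 (edgeR, adjusted p = 0.191).

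Of the inhibitors, 3 of 11 listed genes were tested and none was called. Timp2, a tissue inhibitor that also bridges Mmp14 and pro-Mmp2 on the cell surface, had medians of 181 CPM in LPS p16-positive, 134 in LPS p16-negative, 178 in PBS p16-positive and 92.2 in PBS p16-negative libraries. Its log2 fold change was 0.57 ± 0.35 for p16 and 0.58 ± 0.35 for LPS. Timp1, the inhibitor that binds pro-Mmp9, was at 1.80 ± 0.67 for LPS (edgeR, adjusted p = 0.268).

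Of the activating proteases and their regulators, 10 were tested, 1 rose with p16 and none was called with LPS. St14, the epithelial membrane serine protease matriptase, ranged over 27.2 to 432 CPM in LPS p16-positive, 9.90 to 24.0 in LPS p16-negative, 43.8 to 152 in PBS p16-positive and 0 to 82.2 in PBS p16-negative libraries. Its p16 log2 fold change was 2.55 ± 0.60 (edgeR, adjusted p = 0.0219). Its highest value, like that of Mmp15, was in LPS p16-positive replicate 2.

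Of the substrates, 10 of 34 listed genes were tested, and 3 rose with p16 while 0 fell. Elastin (Eln) had 31 UMIs in LPS p16-positive, 3 in LPS p16-negative, 38 in PBS p16-positive and 2 in PBS p16-negative libraries, a log2 fold change of 3.02 ± 0.72 (edgeR, adjusted p = 0.0235). Perlecan (Hspg2), a basement membrane proteoglycan, had 24 UMIs in LPS p16-positive, 2 in LPS p16-negative, 37 in PBS p16-positive and 3 in PBS p16-negative libraries, a log2 fold change of 3.06 ± 0.78 (adjusted p = 0.0348). Laminin alpha-5 (Lama5), of epithelial and endothelial basement membranes, had 81 UMIs in LPS p16-positive, 7 in LPS p16-negative, 80 in PBS p16-positive and 8 in PBS p16-negative libraries, a log2 fold change of 2.54 ± 0.63 (edgeR, adjusted p = 0.0296). These group counts are not scaled for depth. In the same group order, median CPM was 19.6, 1.24, 61.4 and 0 for Eln and 28.1, 1.24, 55.7 and 4.26 for Hspg2. For Lama5 it was 35.0, 9.58, 121 and 31.4. The highest LPS p16-positive library for Lama5 was replicate 2, at 201 CPM against 9.35 to 44.8 CPM in the others. Within each treatment, median endothelial and general epithelial marker shares were also higher in p16-positive libraries. Endothelial medians were 0.224% in LPS p16-positive, 0.114% in LPS p16-negative, 0.792% in PBS p16-positive and 0.350% in PBS p16-negative libraries. General epithelial medians were 0.117, 0.104, 0.239 and 0.160% in that order. Both shares were thus higher in PBS p16-negative than in LPS p16-positive libraries, whereas Eln, Hspg2 and Lama5 were lower there by median. The part of these markers was not tested. These 4 p16 calls depended on the libraries and on the design of the fit. Leaving out replicate 2 of LPS p16-positive or of PBS p16-positive, or replicate 3 or 4 of either p16-negative group, ended each of them. Replicate 2 of LPS p16-negative also ended those of Lama5 and Hspg2, and replicate 1 of PBS p16-positive that of Hspg2. The highest of these adjusted p-values was 0.191. All 4 calls also ended without both PBS replicate 1 libraries (edgeR, adjusted p 0.0568 to 0.0868). They held in DESeq2 (adjusted p 0.0241 to 0.0487). With a replicate block by treatment and number they were stronger (edgeR, adjusted p 0.000183 to 0.00813).

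Of the binding partners and traffic regulators of membrane-type enzymes, 17 of 22 listed genes were tested, and 1 rose with LPS. Cd63, a late endosomal tetraspanin that also binds Timp1, ranged over 767 to 2370 CPM in LPS p16-positive, 613 to 1686 in LPS p16-negative, 72.1 to 496 in PBS p16-positive and 0 to 535 in PBS p16-negative libraries. All 8 LPS libraries were thus above all 8 PBS libraries, as for Mmp14. Its LPS log2 fold change was 2.04 ± 0.42 (edgeR, adjusted p = 0.00796), and it stayed between 1.87 and 2.20 and called when any 1 library was left out.

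Of the related ADAM and ADAMTS proteases 9 were tested, and of transcription factors and cytokines known to induce metalloproteases 16 were tested, with none called in either comparison. Adam15 had medians of 979 CPM in LPS p16-positive, 1486 in LPS p16-negative, 761 in PBS p16-positive and 1028 in PBS p16-negative libraries. Adamts10 had medians of 81.2 CPM in LPS p16-positive, 129 in LPS p16-negative, 115 in PBS p16-positive and 89.7 in PBS p16-negative libraries. Tgfb1, the growth factor TGF-beta 1, had medians of 1092 CPM in LPS p16-positive, 1362 in LPS p16-negative, 951 in PBS p16-positive and 1519 in PBS p16-negative libraries. Jund, a subunit of AP-1, had medians of 1150 CPM in LPS p16-positive, 882 in LPS p16-negative, 1196 in PBS p16-positive and 532 in PBS p16-negative libraries.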

How the data were processed

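Sorted AMs were profiled with a bulk, 3′ form of MARS-seq, and the authors processed the reads with the UTAP pipeline. The deposited counts are UMIs per gene, uniquely mapped to mm10. The authors also deposited a normalized signal (counts divided by size factors) and regularised log2 values. The signal was used to check the counts, and the log2 values were not used. Columns of the authors' own comparisons (fold changes, p-values and adjusted p-values of pairs of groups) were not used. Counts of 16 libraries (13861 to 1176358 UMIs) were fitted with edgeR 4.0.16 in R 4.3.3 (TMM factors, quasi-likelihood test, genes with at least 30 UMIs, 6516 of 7946). The p16 comparison had treatment as a term, the LPS comparison had the fraction, and the difference of LPS effects used 4 group means. Fold changes carry an SE derived from edgeR's F statistic, and adjusted p-values cover all tested genes. DESeq2 1.42.0, other scalings and filters, replicate blocks and leaving out each library were alternatives. The fit was tested on simulated data. Intervals and limits for a count of 0 cover counting error only. P-values measure the spread between libraries, which may be technical in part, since no source ties a library to an animal. Replicates of a group differed by more than sampling noise in all 24 pairs (chi-square per degree of freedom 3.33 to 43.1). Genes named were the 3 members, up to 4 called genes of each list (or the 2 with most UMIs) and the 5 genes most like each member (some items are not reported here). Single marker genes were picked for mention with their values known. The members and lists were chosen with earlier results of these data known.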

Additional observations from a re-analysis of the deposited data

Results flagged for a closer look

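In 4 of 32 sets of 4 libraries, 1 library stood far from the other 3 by Dixon's test at the 95% level. Chance passes this level in about 1 of 20 sets of normally distributed values, a rate that need not hold for sparse counts. Mmp15 was at 783 CPM in LPS p16-positive replicate 2, against 23.8 to 134 CPM in the other 3 libraries of that group. St14 was at 432 CPM in the same library. Mmp9 was at 190.4 CPM in PBS p16-negative replicate 1, from 3 UMIs, against 25.6 to 35.7 CPM in the others. Eln was at 8.92 CPM in PBS p16-negative replicate 4, from 2 UMIs, and at 0 in the others.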

How the results depend on the processing

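The directions of Mmp14 and Mmp9 in both comparisons, and of Mmp15 in the p16 comparison, held in every fit run, with values within the spread between libraries. Under the alternatives other than leaving out 1 library, Mmp14 was at 2.49 to 2.73 for LPS, Mmp15 at 2.17 to 2.77 for p16 and Mmp9 at 1.14 to 1.502 for p16 (log2). Mmp9 was filtered out by filterByExpr and has no value there. Leaving out 1 library gave -0.39 to -0.10, 1.93 to 3.04 and 1.00 to 1.41 for Mmp14, Mmp15 and Mmp9 in the p16 comparison, and 2.45 to 2.91, -0.89 to 0.36 and -1.20 to -0.80 in the LPS comparison. The median of all genes in the LPS comparison was 0.14, 0.03 with relative log expression factors and -0.01 in DESeq2. Relative to it, Mmp14 was at 2.53, 2.52 and 2.57, and Mmp15 at -0.08, -0.19 and -0.20.

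Counts of calls were less stable. All genes called in the p16 comparison numbered 92, against 157 with no filter, 21 with filterByExpr and 43 without both PBS replicate 1 libraries, and 0 to 284 with 1 library left out (the lowest lacks replicate 4 of LPS p16-negative, the highest replicate 4 of LPS p16-positive). Called list genes numbered 4, against 0 with filterByExpr and 0 without both PBS replicate 1 libraries, and 0 to 5 with 1 left out. In the LPS comparison 60 genes were called, against 135 in DESeq2, and 29 to 195 with 1 left out (195 without LPS p16-positive replicate 2), and 1 list gene, against 4 in DESeq2 and 3 with no filter, and 1 to 7 with 1 left out. The causes were not tested.

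Replicate numbers are shared between groups, but same-numbered fractions of a treatment did not all deviate together (correlations -0.00 to 0.61 over 8 pairs, 7 above 0.1, and 13 of 16 libraries correlated best with their own number), so the number was not used as pairing in the main fit. The median correlation was 0.26 for these pairs and -0.08 for fractions of a treatment with different numbers. By number, the p16-positive library was the higher in 7 of 8 pairs for Mmp15, 7 of 8 for Mmp9 and 4 of 8 for Mmp14. A replicate block by number gave 260 calls for p16 (251 higher and 9 lower in p16-positive AMs) and 242 for LPS, with 8 list genes called for LPS, and moved Mmp15 to 2.30 for p16 and -0.46 for LPS. A replicate block by treatment and number gave 357 calls for p16 (311 higher and 46 lower), 9 list genes called, and 1 gene called for the difference of LPS effects. Depth limits Mmp9 most, with 10 UMIs in LPS p16-negative and 16 in PBS p16-negative libraries.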
